A study of Mus musculus with 24 samples.

Results

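In all, 10 genes that store, move or release iron were followed across the 24 libraries, namely the exporter Slc40a1 (ferroportin), the heme-degrading enzyme Hmox1, the ferritin chains Fth1 and Ftl1, the transferrin receptor Tfrc, the metal transporters Slc11a1 and Slc11a2, the hormone Hamp (hepcidin), the ferritin receptor Ncoa4 and the ferrireductase Steap3. They were chosen by name as members of this system, and all 10 were among the 54658 gene symbols of both count tables and passed the low-count filter in every tissue. RNA was sequenced from the peritoneal cells, hearts and lungs of male C57BL/6 mice aged 7 to 12 weeks that received β-NMN (β-nicotinamide mononucleotide, a precursor of NAD+) at 185 mg/kg/day or vehicle (0.9% saline) by intraperitoneal injection. The peritoneal cells of 6 vehicle and 6 β-NMN mice had been elicited with 1 ml of 4% thioglycollate medium (TGC) and were stimulated in culture with E. coli for 6 h before RNA was taken, so both groups carried both stimuli. The hearts and lungs came from 3 vehicle and 3 β-NMN mice after cecal ligation and puncture (CLP), both organs from the same animals, and both groups had undergone CLP. The TGC mice were dosed daily, the first dose with the TGC, and the CLP mice had 1 dose right after surgery. In both experiments the last dose was given 24 h before the cells or organs were taken. No unstimulated cells and no sham-operated organs were analysed here, so every difference below is β-NMN against vehicle within inflamed tissue.

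Iron inside a cell is kept in ferritin, a shell built of heavy (Fth1) and light (Ftl1) chains, and leaves the cell through ferroportin, its only known exporter. Hepcidin binds ferroportin and has it degraded, which holds iron within macrophages. Macrophages take in much of their iron as heme from old red cells, which heme oxygenase 1 (Hmox1) opens, and during infection they can withhold iron from bacteria by exporting it from the phagosome, where Slc11a1 sits, or by locking it in ferritin. Several of these messages are also read by the iron regulatory proteins, which bind a hairpin called the iron-responsive element. Bound in a 5′ untranslated region it blocks translation, and bound in the 3′ untranslated region of Tfrc it protects the message from decay.

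The hairpins are shown because control through those of a 5′ region acts on translation, which RNA counts do not measure. GENCODE M21 transcripts (GRCm38) were searched on the transcript strand for the hairpin written as C, any 5 bases, CAGTGN and any 5 bases, in which the 5 bases on each side of CAGTGN can pair, G-T pairs included. A match lay in an annotated untranslated region of 4 of the 10 members, and of 0.731% of the 21877 coding genes searched. Fth1, Ftl1 and Slc40a1 each had 1 match, in the 5′ region, and Tfrc had 4, all in the 3′ region, of which 1 is shown. Each line gives 30 bases as DNA from 5′ to 3′ on the gene's strand, and capitals mark the loop CAGTGN.
Fth1, chr19:9982732-9982761, plus strand: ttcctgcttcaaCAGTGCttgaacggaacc
Ftl1, chr7:45459778-45459807, minus strand: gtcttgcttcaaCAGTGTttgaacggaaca
Slc40a1, chr1:45925464-45925493, minus strand: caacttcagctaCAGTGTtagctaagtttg
Tfrc, chr16:32631219-32631248, plus strand: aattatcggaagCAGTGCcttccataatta
The same letters were not found in the untranslated regions of the other 6 members. This does not show that they lack an element, since the search would miss hairpins with an extra unpaired base or another loop. The match is a description of the sequence, and the binding of the regulatory proteins was not measured.

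Total counts ranged from 31126823 to 112456050 per peritoneal library, from 27319513 to 68523239 per heart and from 8915366 to 28356786 per lung. Summed markers of the labelled tissues were high where they belonged: 6 macrophage markers reached 5456 to 11660 CPM (counts per 1000000 reads of the TMM-normalised library) in peritoneal cells, 5 cardiomyocyte markers 29580 to 55330 CPM in hearts, and 4 lung epithelial markers 54760 to 99130 CPM in lungs. Vehicle replicate 2 of the CLP mice stood apart in both organs. The log2 difference of that library from the mean of the rest of its organ had an SD across genes of 0.99 in the heart and 1.57 in the lung, where the other libraries had 0.386 to 0.577 and 0.45 to 0.602. Its lung was also the shallowest library, and fold changes of the members in the organs are given with and without it. The source labels of the organs name thioglycollate peritonitis, whereas titles and tissue labels give CLP. Within a tissue replicates were separate mice, so the tests of β-NMN against vehicle are judged against the spread between mice. The tests between organs and of the interaction took the organs of a mouse as separate libraries, with the mouse as a block only as an alternative. In these bulk samples fewer cells of a type and less RNA per cell cannot be told apart.

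In peritoneal cells, ferroportin fell 25.9-fold with β-NMN, the heavy ferritin chain and Slc11a1 fell, and heme oxygenase 1, hepcidin, Steap3, Ncoa4 and the light ferritin chain rose. Of the 10 members, 8 passed an adjusted p of 0.05 in edgeR's quasi-likelihood test, 5 higher and 3 lower. Over all 14985 genes tested in these cells, 51.6% passed (7733 genes), so that a change in either direction was common. The median log2 fold change of the 10 members was 0.31, and that of all genes tested was -0.02. In 4 members the groups did not overlap, as for 26.6% of all genes tested.

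Slc40a1 encodes ferroportin, the cell's iron exporter, on chromosome 1 from 45908068 to 45926523 (GRCm38). Its level in vehicle cells ran from 25.0 to 64.6 CPM with a median of 51.3, and in β-NMN cells from 1.59 to 2.35 CPM with a median of 1.91. Every β-NMN mouse was therefore below every vehicle mouse by a wide margin, and the mean went from 49.3 ± 14.5 to 1.92 ± 0.315 CPM (SD, n = 6 each). The log2 fold change was -4.69 (SE 0.22, edgeR adjusted p = 4.19e-09), and the exact two-sided permutation p was 0.00216, the smallest that 6 mice against 6 can give. Hepcidin, the hormone that acts on ferroportin protein, is encoded by Hamp on chromosome 7 from 30942368 to 30944032. Hamp was low, at 4.61 to 12.6 CPM (median 6.40) in vehicle cells and 10.6 to 20.98 CPM (median 14.4) in β-NMN cells. The groups overlapped, since 1 vehicle mouse at 12.6 CPM lay above the lowest β-NMN mice, and the mean rose from 7.31 ± 2.998 to 15.3 ± 4.45 CPM (SD, n = 6 each), a log2 fold change of 1.07 (SE 0.25, edgeR adjusted p = 0.00209). Within groups the libraries that had more Hamp had less Slc40a1: the deviations of log2 CPM from the group means had a Pearson r of -0.90 over the 12 libraries, a description that carries no test.

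**Figure D1:**
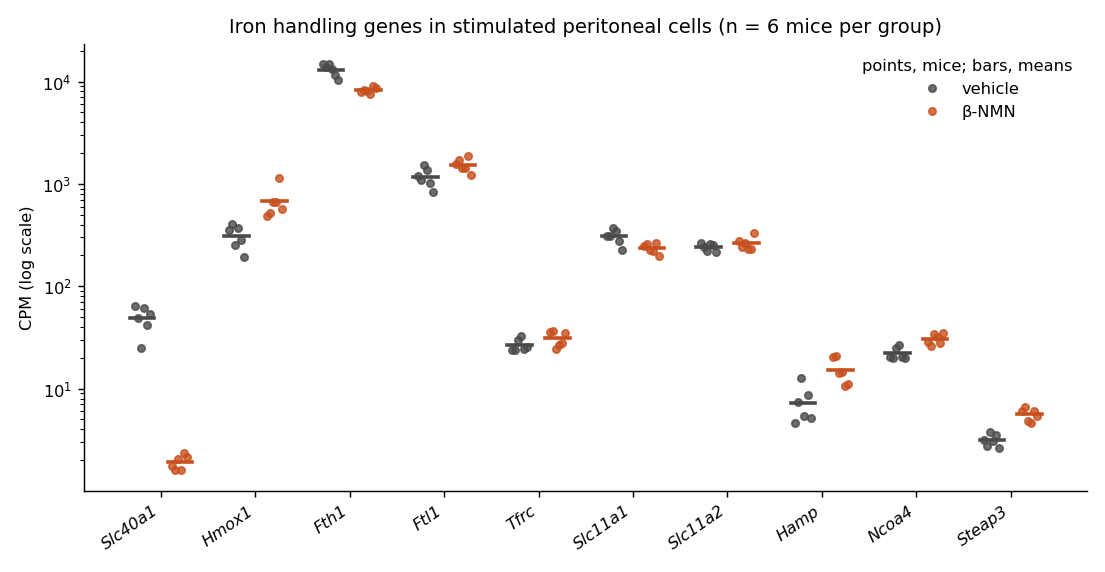
CPM of the 10 iron handling genes on a log axis in TGC-elicited peritoneal cells stimulated with E. coli, with a point for each of 6 vehicle and 6 β-NMN mice and a bar at the mean. The β-NMN points of Slc40a1, between 1.59 and 2.35 CPM, lie below all vehicle points, as they do for Fth1, while those of Hmox1 and Steap3 lie above.

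The ferritin chains moved in opposite directions. Fth1, the heavy chain with the ferroxidase activity that loads iron, was the most abundant member, at 10344 to 14741 CPM (median 13578) in vehicle cells and 7628 to 9019 CPM (median 8133) in β-NMN cells. The groups did not overlap, and Fth1 fell by 0.67 on the log2 scale (SE 0.11, edgeR adjusted p = 0.000156). Ftl1, the light chain that helps the shell hold mineral iron, was at 835 to 1541 CPM (median 1151) in vehicle cells and 1223 to 1880 CPM (median 1503) in β-NMN cells. These groups overlapped, and the log2 fold change was 0.39 (SE 0.15, edgeR adjusted p = 0.0362). Per kilobase of the principal transcript, Fth1 stood at 7.32 ± 0.911 times the level of Ftl1 in vehicle cells and at 3.53 ± 0.577 times in β-NMN cells (SD, n = 6 each). The ratio ran from 6.20 to 8.23 in vehicle mice and from 3.09 to 4.62 in β-NMN mice, without overlap, and the exact two-sided permutation p was 0.00216, the smallest the design allows. In hearts the ratio was 11.8 ± 0.993 and 9.66 ± 1.58, and in lungs 4.54 ± 0.394 and 4.04 ± 0.801 in vehicle and β-NMN mice (SD, n = 3 each), with exact permutation p of 0.2 and 0.4, where 0.1 is the smallest possible. Without vehicle replicate 2 the vehicle means were 11.3 in heart and 4.68 in lung. Reads of processed ferritin copies could be shared with these genes. The copies held at most 975 reads in any library (Ftl1-ps1). Reads matching both a copy and its gene may have been dropped from both, so these counts do not show that Fth1 and Ftl1 were fully counted. The effect on the ratios was not tested. The antisense gene Gm10252 covers 26.5% of the exon bases of Ftl1 and had at most 55 reads.

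**Figure D2:**
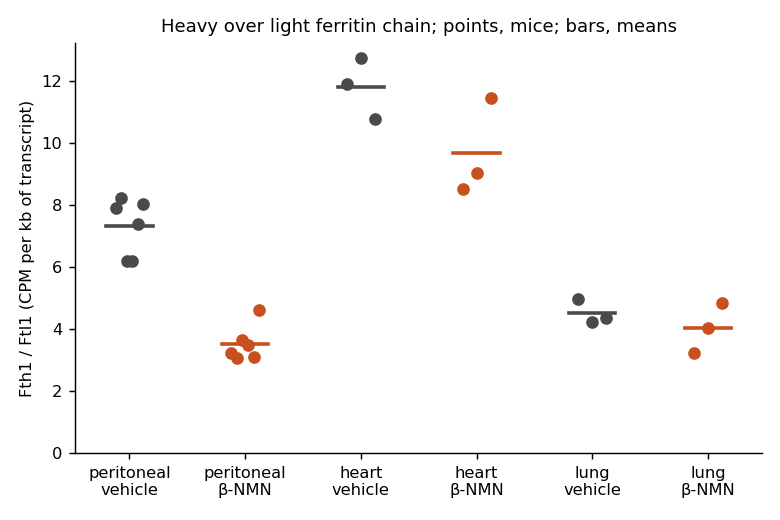
Ratio of Fth1 to Ftl1, both in CPM per kilobase of the principal transcript, for each mouse (points) with the group mean (bars), in peritoneal cells (n = 6 per group), hearts and lungs (n = 3 per group). Peritoneal cells had ratios of 6.20 to 8.23 with vehicle and 3.09 to 4.62 with β-NMN, and the organ groups overlapped.

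Ncoa4 encodes the receptor that carries ferritin to the lysosome for the release of its iron. It had 19.8 to 26.6 CPM (median 20.4) in vehicle cells and 26.4 to 34.8 CPM (median 30.4) in β-NMN cells, and the groups met only at the highest vehicle and the lowest β-NMN mouse. The log2 fold change was 0.47 (SE 0.10, edgeR adjusted p = 0.00168). Steap3, the reductase that turns ferric into ferrous iron in the endosome, was the least abundant member in vehicle cells, at 2.62 to 3.80 CPM (median 3.12), and was at 4.58 to 6.65 CPM (median 5.77) in β-NMN cells. All β-NMN mice lay above all vehicle mice, with a log2 fold change of 0.83 (SE 0.13, edgeR adjusted p = 0.000117).

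Hmox1 encodes heme oxygenase 1, the inducible enzyme that frees iron from heme. Vehicle cells had 193 to 406 CPM (median 320) and β-NMN cells 486 to 1151 CPM (median 618), so that the groups did not overlap. The log2 fold change was 1.12 (SE 0.22, edgeR adjusted p = 0.000609), and it was 0.93 without β-NMN replicate 5, which held the highest value. Slc11a1 encodes Nramp1, the transporter of the phagosome membrane of macrophages. It was at 227 to 374 CPM (median 309) in vehicle cells and 196 to 262 CPM (median 238) in β-NMN cells, with overlap, and its log2 fold change was -0.38 (SE 0.12, edgeR adjusted p = 0.014). Slc11a1 and Ftl1 deviated together within groups, with an r of 0.97 over the 12 libraries, although their means moved in opposite directions.

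Both remaining members are importers of iron at the surface and in the endosome, and neither passed the test with all 12 libraries. Tfrc, the receptor for transferrin-bound iron, was at 23.7 to 32.9 CPM in vehicle cells and 24.7 to 36.2 CPM in β-NMN cells (log2 fold change 0.22, SE 0.12, edgeR adjusted p = 0.142). Slc11a2, the divalent metal transporter DMT1, was at 217 to 266 CPM and 230 to 334 CPM (log2 fold change 0.12, SE 0.10, edgeR adjusted p = 0.357). For each gene the groups overlapped. Slc11a2 shares 6.3% of its exon bases with the antisense gene Gm5475, which had at most 80 reads.

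Some of these calls rested on few libraries. Ftl1 missed the threshold without any 1 of vehicle replicates 2, 5 or 6 or of β-NMN replicates 2 or 5, and Slc11a1 without vehicle replicate 3 or 4 or β-NMN replicate 3 or 4 (highest edgeR adjusted p 0.0822 and 0.0564). Tfrc was gained without vehicle replicate 4 or β-NMN replicate 3 (log2 fold change 0.33 and 0.32, edgeR adjusted p 0.0333 and 0.0408). Among the 5 libraries over 75 M reads alone, 5 of the 10 members and 30.5% of all genes tested passed, and among the other 7 libraries 6 members and 27.9%. Between the deep and the shallower libraries the log2 fold change was -0.0827 (edgeR adjusted p 0.759) and -0.51 for Slc11a1, 1.755 and 0.64 (0.126 in the shallower) for Hamp, and 0.69 and 0.25 (0.341 in the shallower) for Ftl1. For Slc40a1 the log2 fold change stayed between -4.79 and -4.57 when any 1 of the 12 libraries was left out.

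Markers of several cell types were also called in these cells, next to the 51.6% of all genes called in either direction. The 6 macrophage markers summed to 5456 to 8241 CPM in vehicle cells and 9883 to 11660 CPM in β-NMN cells, with 2 of the 6 called, both higher. Of 5 neutrophil markers, 4 were called, S100a8, S100a9 and Ly6g lower and Retnlg higher, and their sum fell from between 91.5 and 293 to between 8.26 and 33.1 CPM. All 5 erythroid markers were called higher, and their sum ran from 2.91 to 38.8 CPM in vehicle cells and from 52.5 to 133 CPM in β-NMN cells. All 3 T cell markers were called lower, with sums of 2.31 to 6.59 CPM in vehicle cells and 0.652 to 1.79 CPM in β-NMN cells. The 3 markers of resident peritoneal macrophages were called in both directions, Timd4 higher (log2 fold change 1.73) and Gata6 (-1.43) and Icam2 (-0.58) lower. Single markers of other types were called as well, with Ccr3 of eosinophils (1.47) and Tnni3 of cardiomyocytes (1.64) higher. Called lower were Pecam1 (-1.37) and Cdh5 (-0.38) of endothelium, Msln (-1.54) and Krt19 (-1.03) of mesothelium, Ms4a1 of B cells (-0.80) and Ager of lung epithelium (-1.63). Their part in the changes of the iron genes was not tested.

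Genes with within-group deviations closest to those of the called members were listed by Pearson r over the 12 peritoneal libraries. They were Pwp1 (0.94), Slc20a1 (0.94) and Gm8822 (0.89) for Slc40a1, Pgm2 (0.93), Slc39a14 (0.92) and D830025C05Rik (0.88) for Hmox1, and Nmt1 (0.98), Esd (0.94) and Sin3b (0.93) for Fth1. For Ftl1 they were Slc11a1 (0.97), Blvrb (0.96) and Asl (0.93), and for Slc11a1 they were Ftl1 (0.97), Aph1c (0.95) and Blvrb (0.95). Hamp was closest to Rpn1 (0.96), Rgcc (0.93) and Mag (0.93), Ncoa4 to Gli3 (0.92), Podxl (0.91) and Arhgap42 (0.90), and Steap3 to Clptm1 (0.90), Epb41l1 (0.90) and Agfg2 (0.88). Blvrb, the biliverdin reductase B that handles products of heme breakdown, was thus near both Ftl1 and Slc11a1. They are the highest of 14985 genes over few libraries, and carry no test.

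**Figure D3:**
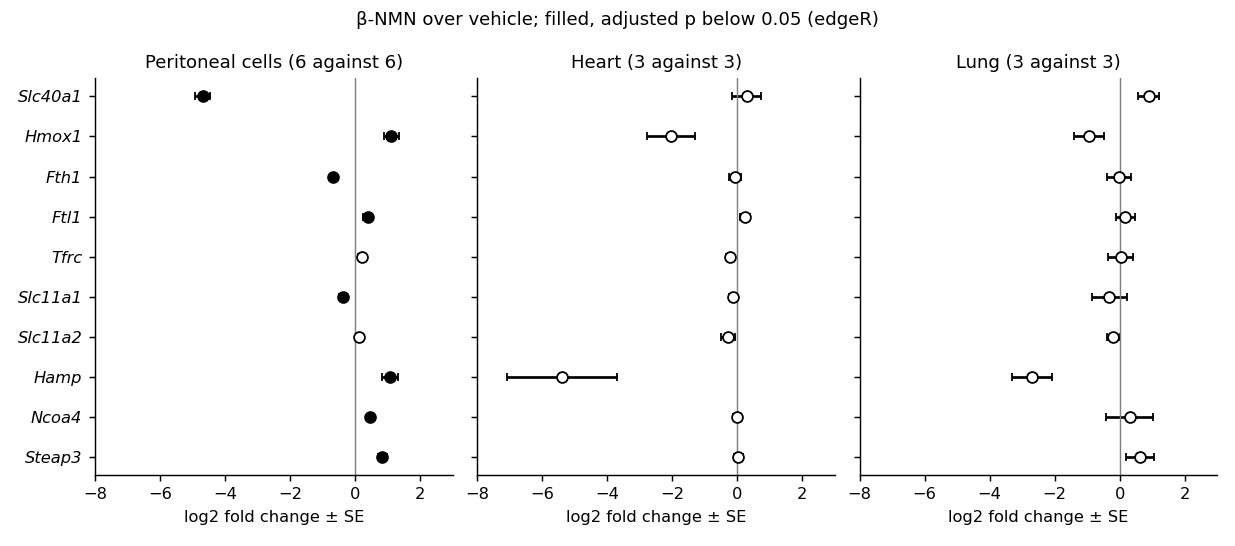
Log2 fold change of β-NMN over vehicle with its standard error for the 10 members in peritoneal cells, hearts and lungs, with filled points where the edgeR adjusted p was below 0.05. Filled points appear in peritoneal cells for 8 members, from -4.69 for Slc40a1 to 1.12 for Hmox1, and no point is filled in either organ.

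The rest of the iron and heme system was followed in a list of 54 further genes, of which 47 were tested in peritoneal cells. Of these, 30 passed the threshold, 12 higher and 18 lower, next to the 51.6% of all genes. Across the 47 tested genes the log2 fold changes had a median of 0.01, and in 18 of these 47 the groups did not overlap, next to 26.6% of all genes. Of the 15 with the smallest p, 14 are described by role.

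Lcn2, Ltf and Hp, which encode secreted proteins, fell, whereas Trf, the secreted iron carrier transferrin, rose from 1.52 ± 0.553 to 4.55 ± 0.605 CPM (log2 fold change 1.61). Lcn2, the lipocalin that captures bacterial siderophores, went from 401 ± 70.3 to 17.2 ± 8.14 CPM (log2 fold change -4.55), and Ltf, lactoferrin, from 5.58 ± 1.70 to 0.516 ± 0.240 CPM (-3.49). Hp, haptoglobin, which binds free hemoglobin, went from 216 ± 97.4 to 7.24 ± 4.87 CPM (-4.92). Lcn2, Ltf and Hp are also made by neutrophils, of which 3 of 5 markers fell in the same mice, and the part of these cells was not tested. Cd163, the macrophage receptor for the hemoglobin-haptoglobin complex, rose instead, from 1.22 ± 0.526 to 4.73 ± 0.720 CPM (1.95), and so did Slc48a1, which carries heme out of the phagolysosome, from 16.4 ± 2.74 to 34.5 ± 7.34 CPM (1.07). Means are given with SD (n = 6 each), and the edgeR adjusted p of these 6 genes lay between 3.57e-08 and 3.65e-05.

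The 3 tested ferrireductases of the list were called lower, as were 27.9% of all genes, whereas Steap3 was called higher. Steap4 went from 40.8 ± 8.35 to 3.38 ± 1.53 CPM (log2 fold change -3.61, edgeR adjusted p = 8.29e-08), and Steap1 and Steap2 had log2 fold changes of -2.24 and -1.48. The importer Slc39a14 (ZIP14), which takes up iron not bound to transferrin, had a log2 fold change of -1.08 (5.78e-06), and Cp, ceruloplasmin, the ferroxidase that works with ferroportin, had -1.03 (0.000383). Picalm, a clathrin adaptor that serves transferrin receptor uptake, also fell (-0.50, 0.000309).

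Of 7 mitochondrial genes tested, 4 rose and 1 fell, next to the 51.6% of all genes called in either direction. Of the pair of mitoferrins that import iron, Slc25a28 rose from 26.9 ± 4.01 to 60.6 ± 11.7 CPM (log2 fold change 1.17) and Slc25a37 fell from 173 ± 34.2 to 95.2 ± 13.4 CPM (-0.86). Nfs1, the desulfurase of iron-sulfur cluster assembly, rose by 0.69 on the log2 scale. The edgeR adjusted p of these 3 genes lay between 5.55e-06 and 0.00013, and in the deep libraries alone Slc25a37 and Nfs1 missed the threshold (0.0644 and 0.0535). Of 5 heme synthesis genes, next to the same 51.6%, Alas2, Fech and Urod were called higher and Alas1 lower. Alas2 (log2 fold change 2.58) is the erythroid form, counted among the erythroid markers above. Nfe2l2 (NRF2), the stress regulator that switches on Hmox1 and ferritin genes, fell from 286 ± 41.0 to 86.5 ± 7.58 CPM (-1.73, edgeR adjusted p = 2.07e-08), while Bach1, the heme-sensing repressor of the same targets, rose (0.50, 0.0156).

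**Figure D4:**
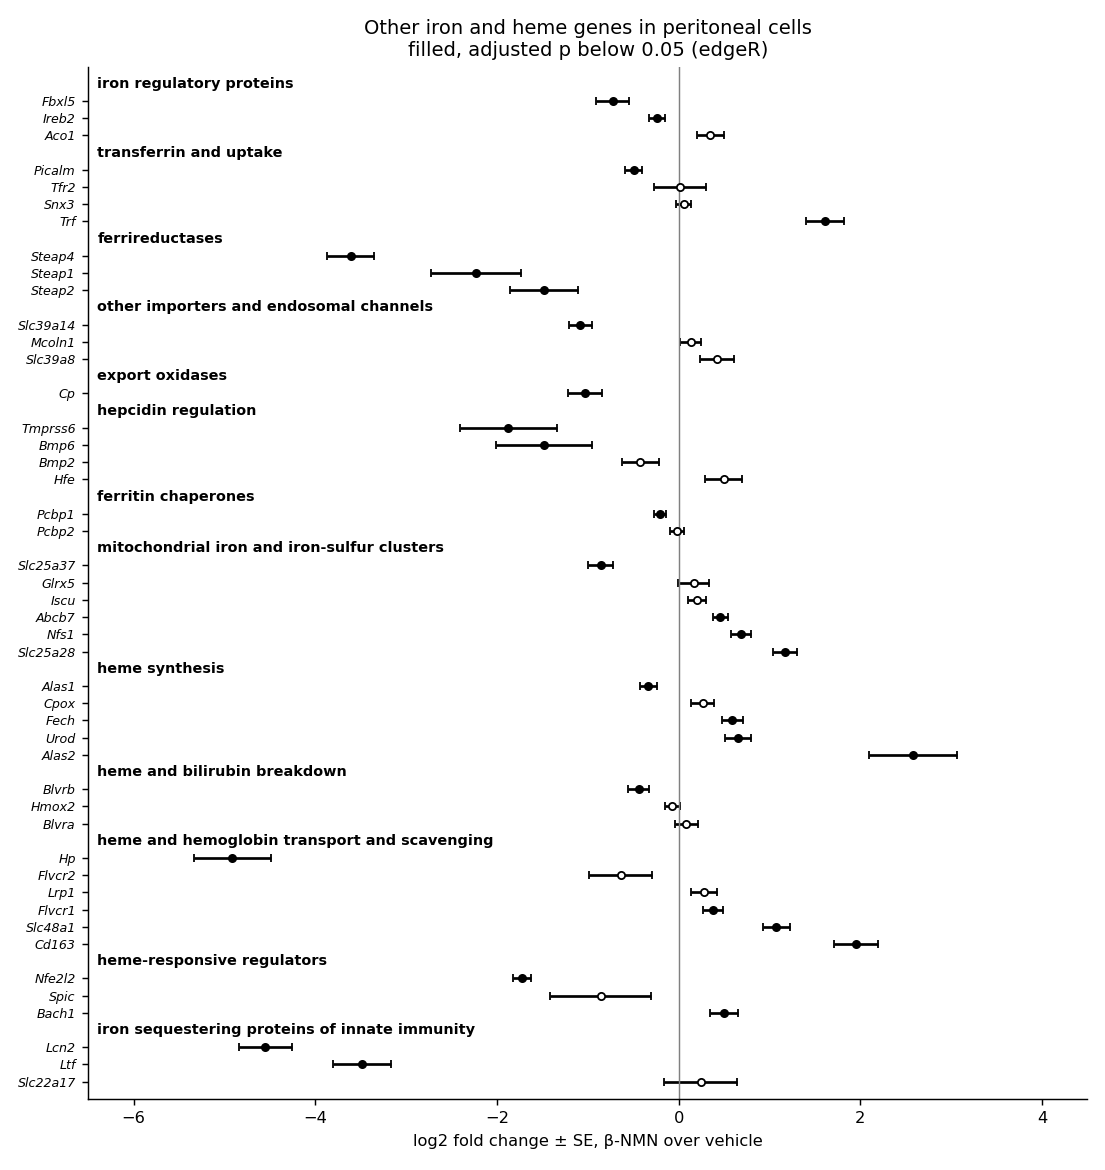
Log2 fold change of β-NMN over vehicle with its standard error in peritoneal cells (n = 6 per group) for 46 of the 47 tested genes of iron and heme handling other than the members, grouped by role, with filled points where the edgeR adjusted p was below 0.05. Of the 46 genes plotted 29 are filled, 11 to the right and 18 to the left of 0, with Hp at -4.92 and Alas2 at 2.58 at the ends.

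In the hearts after CLP no member passed the threshold, and hepcidin and heme oxygenase 1 had the lowest fold changes. Of all 16245 genes tested in hearts, 0% passed in edgeR's test, and the smallest adjusted p was 0.115. At an unadjusted p below 0.05 there were 1837 genes, of which 2 were members (Hmox1 and Hamp), and DESeq2 called 1 member, Hamp, and 1.75% of the 14958 genes to which it gave an adjusted p. Hamp was at 6.82, 437 and 45.0 CPM in the vehicle hearts and at 9.72, 0.998 and 1.46 CPM in the β-NMN hearts. The highest β-NMN heart was above the lowest vehicle heart, so the groups overlapped. The log2 fold change was -5.40 (SE 1.71, edgeR adjusted p = 0.435, DESeq2 adjusted p = 0.0468), and without vehicle replicate 2, the heart at 437 CPM, it was -2.80 (edgeR adjusted p = 0.426). Summed markers of hepatocytes, the cells that make most hepcidin, were 58.1, 1.77 and 5.24 CPM in the same vehicle hearts and 109, 2.51 and 19.9 CPM in the β-NMN hearts. The sum of 1.77 CPM belonged to vehicle replicate 2. That heart also had the most mesothelial markers (75.5 CPM, against 1.37 and 6.75 in the other vehicle hearts and 0.670 to 5.30 in the β-NMN hearts) and the least cardiomyocyte markers (29580 CPM). The part of hepatocytes, mesothelium and cardiomyocytes in its Hamp level was not tested.

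Hmox1 was at 39.8, 252 and 60.4 CPM in the vehicle hearts and 18.4, 20.2 and 46.7 CPM in the β-NMN hearts. The value of 252 CPM belonged to vehicle replicate 2, and the groups overlapped. The log2 fold change was -2.04 (SE 0.75, edgeR adjusted p = 0.435) with all hearts and -0.81 without that replicate. Slc40a1 was at 50.3, 13.3 and 47.4 CPM in the vehicle hearts and 43.5, 41.4 and 50.3 CPM in the β-NMN hearts, so that vehicle replicate 2 alone stood low. Its log2 fold change was 0.29 (SE 0.45, edgeR adjusted p = 0.754) and turned to -0.12 without that heart. Tfrc was the member whose groups did not overlap, at 9.94, 11.2 and 10.3 CPM in the vehicle hearts and 8.79, 8.92 and 9.09 CPM in the β-NMN hearts, as were 23.1% of all genes tested in hearts. Its log2 fold change was -0.23 (SE 0.13, edgeR adjusted p = 0.461), with an exact permutation p of 0.1, the smallest that 3 mice against 3 can give. Fth1, Ftl1, Slc11a1, Slc11a2, Ncoa4 and Steap3 had log2 fold changes from -0.29 (Slc11a2) to 0.24 (Ftl1), and Ncoa4 lay so close to 0 (-0.0022) that its sign changed with the setting. Without vehicle replicate 2 those of these 6 members ran from -0.0736 (Slc11a1) to 0.23 (Ftl1), with Slc11a2 at -0.0042, and that of Tfrc was -0.19.

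Among the other iron genes, 48 were tested in hearts and 0 passed, with 8 at an unadjusted p below 0.05 and 2 called by DESeq2, next to its 1.75% of all genes. The 3 with the smallest p were Cd163, the importer Slc39a8 (ZIP8) and Steap4. Cd163, the macrophage receptor described above, went from 63.4 ± 20.3 to 23.1 ± 5.88 CPM (log2 fold change -1.45, SD, n = 3 each, edgeR adjusted p = 0.435), Slc39a8 from 39.0 ± 58.0 to 1.24 ± 0.570 CPM (-5.00) and Steap4 from 111 ± 53.4 to 54.9 ± 2.80 CPM (-1.02). In each of them the β-NMN hearts lay below the vehicle hearts. Of the 48 tested, 11 had groups that did not overlap, next to 23.1% of all genes tested in hearts. Without vehicle replicate 2 the log2 fold changes were -1.17, -2.18 and -0.56. The 6 macrophage markers had sums of 218 to 366 CPM (median 312) in the vehicle hearts and 256 to 468 CPM (median 370) in the β-NMN hearts and 0 of 6 called. Adgre1 and Lyz2 had log2 fold changes of 0.69 and 0.58, and the other 4 lay between -0.53 and -0.18.

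In the lungs after CLP no member passed either, and ferroportin and hepcidin were the members with an unadjusted p below 0.05. Of the 17008 genes tested in lungs, 0% passed in edgeR's test, with a smallest adjusted p of 0.969 and 301 genes at an unadjusted p below 0.05, of which 2 were members, while DESeq2 called 1 member, Hamp, and 0.0536% of the 16784 genes to which it gave an adjusted p. Slc40a1 was at 6.21, 5.63 and 6.59 CPM in the vehicle lungs and 8.89, 15.9 and 9.43 CPM in the β-NMN lungs, so every β-NMN lung was above every vehicle lung. The log2 fold change was 0.89 (SE 0.32, edgeR adjusted p = 0.969), and it was 0.84 without vehicle replicate 2, or 0.58 when β-NMN replicate 2, the lung at 15.9 CPM, was left out. Hamp was at 4.05, 11.4 and 2.98 CPM in the vehicle lungs and 0.731, 0.812 and 1.21 CPM in the β-NMN lungs, from 12 to 120 reads. The β-NMN lungs were all below the vehicle lungs, with a log2 fold change of -2.71 (SE 0.62, edgeR adjusted p = 0.969, DESeq2 adjusted p = 0.0442) and of -1.92 without vehicle replicate 2. Summed hepatocyte markers were at 7.66 to 15.4 CPM in the vehicle lungs and 1.71 to 5.58 CPM in the β-NMN lungs, with 0 of the 2 tested ones called. Summed cardiomyocyte markers were at 243, 405.5 and 251.5 CPM in the vehicle lungs and 143, 237 and 70.2 CPM in the β-NMN lungs, with 0 of the 4 tested ones called. Neither sum overlapped between the groups. The lung with the most Hamp held the highest cardiomyocyte and the lowest hepatocyte sum of the vehicle lungs. Its cardiomyocyte sum was mostly Tnnt2 and Tnni3, both highest there, whereas its Myh6 and Actc1 were the lowest of the vehicle lungs. The part of either cell type in the Hamp values was not tested.

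**Figure D5:**
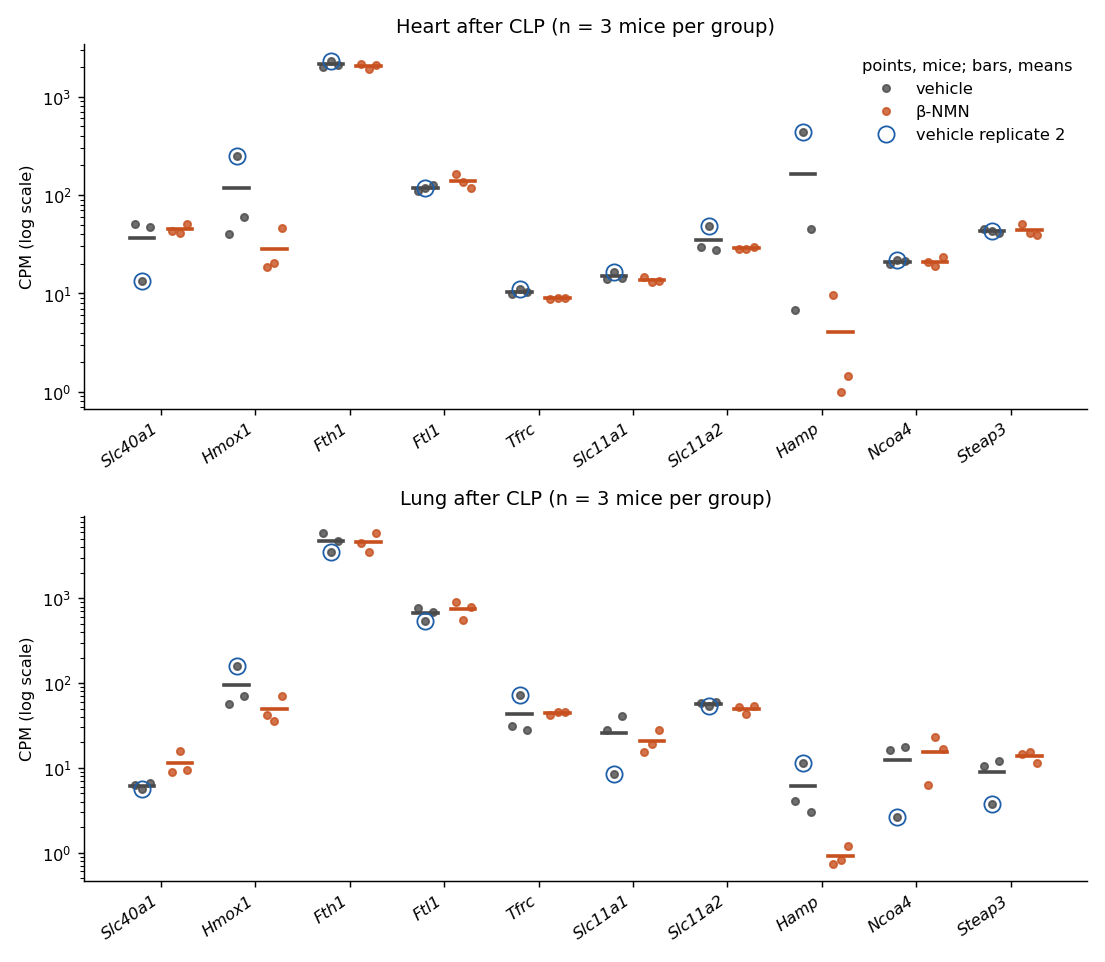
CPM of the 10 iron handling genes on a log axis in hearts (top) and lungs (bottom) of 3 vehicle and 3 β-NMN mice after CLP, with a point per mouse, a bar at the mean and a circle around vehicle replicate 2. In the heart the circled library is the highest in Hamp (437 CPM) and Hmox1 (252 CPM) and the lowest in Slc40a1 (13.3 CPM), and in the lung it is the lowest in Ncoa4 (2.60 CPM) and Steap3 (3.76 CPM).

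The groups also did not overlap for Slc11a2, at 57.5, 54.0 and 60.4 CPM in the vehicle lungs and 52.5, 43.4 and 53.8 CPM in the β-NMN lungs (log2 fold change -0.20, SE 0.20). These 3 of 10 members stand next to 8.21% of all genes tested in lungs whose groups did not overlap. Hmox1 was at 56.7, 159 and 71.2 CPM in the vehicle lungs and 42.1, 35.9 and 70.5 CPM in the β-NMN lungs, and its log2 fold change of -0.95 (SE 0.46) became -0.36 without vehicle replicate 2. Fth1, Ftl1, Tfrc, Slc11a1, Ncoa4 and Steap3 had log2 fold changes from -0.32 (Slc11a1) to 0.62 (Steap3), and their groups overlapped. Without vehicle replicate 2 they ran from -0.72 (Slc11a1) to 0.58 (Tfrc), with Steap3 at 0.27, and that of Slc11a2 was -0.24. The lung of that replicate was the lowest in Slc11a1 (8.38 CPM), Ncoa4 (2.60 CPM) and Steap3 (3.76 CPM) and the highest in Tfrc (71.5 CPM). It also had the highest erythroid sum (11870 CPM, against 1999 to 4088 in the other lungs of all mice) and the lowest macrophage sum (1278 CPM, against 3925 to 5406). The erythroid sum was mostly Hba-a1 and Hba-a2 (5714 and 4669 CPM). Hbb-bs and Hbb-bt were higher in another vehicle lung, and Alas2 (20.8 CPM) was the lowest of all lungs. The part of these cells in the values was not tested. Of 51 other iron genes tested in lungs 0 passed in edgeR's test, with 3 at an unadjusted p below 0.05 and 0 called by DESeq2, while limma-voom called 1 of them, Hpx, and 0.0412% of all genes. The 3 with the smallest p were Hpx, hemopexin, the plasma carrier of heme (16.8 ± 2.50 to 6.28 ± 2.12 CPM, SD, n = 3 each, log2 fold change -1.42), Ltf (-1.21) and Slc39a14 (-1.44). Without vehicle replicate 2 those of Hpx, Ltf and Slc39a14 were -1.51, -0.95 and -0.83.

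Whether the response to β-NMN differed between the organs was tested as an interaction over the 12 CLP libraries. It was called for 0 of the 10 members and for 0% of the 18318 genes tested, with 797 genes and 0 members at an unadjusted p below 0.05, and DESeq2 called 0 members and 0.0777% of the 18008 genes to which it gave an adjusted p. For Slc40a1 the log2 fold change was higher in lung by 0.61 (SE 0.59), by 0.25 without β-NMN replicate 2 and by 0.94 without vehicle replicate 2. For Hamp it was higher by 2.75 (SE 1.78), by 0.83 without vehicle replicate 2 and by 4.56 without β-NMN replicate 1. Changes in peritoneal cells and organs come from separate experiments and tables and were not tested against each other.

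The levels themselves differed between heart and lung for 6 of the 10 members, while 64.8% of all genes tested differed. Higher in heart were Hamp (17.4-fold, edgeR adjusted p = 0.0024), Slc40a1 (7.77-fold, 6.49e-06), Steap3 (6.19-fold, 3.08e-06) and Ncoa4 (2.38-fold, 0.0172). Ftl1 (3.49-fold, 3.95e-06) and Tfrc (2.80-fold, 4.54e-05) were higher in lung. Fth1 was 1.41-fold higher in lung at an adjusted p of 0.0526, without vehicle replicate 2 at 0.0102, and in DESeq2, which called 68.4% of all genes, at 0.0111. Hmox1, Slc11a1 and Slc11a2 did not pass (log2 lung minus heart -0.43, 0.04 and 0.08). The log2 lung minus heart difference of Hamp was -4.12 with all mice and -3.20 without vehicle replicate 2. In heart and lung Hamp was at 6.82 and 4.05, 437 and 11.4, and 45.0 and 2.98 CPM in vehicle replicates 1 to 3. In β-NMN replicates 1 to 3 it was at 9.72 and 0.731, 0.998 and 0.812, and 1.46 and 1.21 CPM. The difference was thus small in vehicle replicate 1 and β-NMN replicates 2 and 3. For these CPM each organ was normalised on its own. Ncoa4 missed the threshold without β-NMN replicate 1 or 3, with an edgeR adjusted p of at most 0.0597.

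Compared per kilobase of the principal transcript, Fth1 was the most abundant member in every tissue and both treatments. In vehicle mice it stood at 8752 ± 1195 CPM per kilobase in peritoneal cells (SD, n = 6), 1429 ± 112 in hearts and 3154 ± 814 in lungs (SD, n = 3 each), and Ftl1 followed at 1217 ± 264 in peritoneal cells and 689.5 ± 125 in lungs. In vehicle hearts the mean of Hamp (397.5 ± 581) exceeded that of Ftl1 (121 ± 8.23), but it rested on vehicle replicate 2. Hmox1 came next in peritoneal cells, at 198 ± 51.8, followed by Slc11a1 (133 ± 22.5) and Slc11a2 (80.3 ± 6.56), which differed by more than their spread. Hamp (17.8 ± 7.31) and Slc40a1 (14.6 ± 4.31) were within their spread of each other in vehicle cells, whereas in β-NMN cells Hamp was at 37.3 ± 10.9 and Slc40a1, now the lowest member, at 0.571 ± 0.0935 CPM per kilobase. Tfrc (5.45 ± 0.784) and Ncoa4 (5.44 ± 0.740) were within their spread of each other in vehicle cells, and Steap3 was lowest at 0.613 ± 0.0870. In vehicle hearts Slc11a2 (11.6 ± 3.71), Slc40a1 (10.98 ± 6.11) and Steap3 (8.39 ± 0.419) could not be ordered beyond their spread, nor could Slc40a1 and either Slc11a1 (6.50 ± 0.555) or Ncoa4 (5.18 ± 0.257). Tfrc was lowest (2.14 ± 0.127). In vehicle lungs Ncoa4 (3.02 ± 2.07), Slc40a1 (1.82 ± 0.142) and Steap3 (1.72 ± 0.870) had the lowest means and were within their spread of each other. Levels in peritoneal cells and organs are set side by side from separately normalised tables.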

How the data were processed

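The authors deposited 2 tables of read counts per gene symbol, not normalised, 1 for the 12 peritoneal libraries and 1 for the 12 CLP libraries. Per the labels, reads were aligned to mm10 with STAR 2.7.3a and counted with featureCounts 2.0.0. The sources used here do not give the annotation or whether counting read the strand, and reads shared by overlapping or near-identical genes may therefore be assigned to either or dropped. edgeR 4.0.16 (R 4.3.3) was run within each tissue with filterByExpr defaults, TMM, estimateDisp and glmQLFTest (legacy quasi-likelihood), with Benjamini-Hochberg adjustment over all genes tested and calls below an adjusted p of 0.05. Standard errors are the absolute log2 fold change over the square root of F. The organs were compared, and the interaction tested, in 1 fit of 4 group means. CPM use TMM-scaled library sizes. For single genes, mean log2 CPM (prior count 2) were also compared by exact two-sided permutation, as was the log2 ferritin ratio. Transcript lengths, positions and hairpins are from GENCODE M21 on GRCm38. Vehicle and β-NMN replicates of the same number are separate mice and were not used as pairs. The correlation of their deviations was -0.169 to 0.132 in peritoneal cells, 0.073 to 0.241 in hearts and -0.518 to 0.304 in lungs. In hearts each vehicle library was closest to the β-NMN library of its own number. Both organs of a mouse are the same animal per the labels (heart with lung 0.043 to 0.148). Of the β-NMN hearts, 2 are labelled 3, and the one whose mouse's lung is 2 was taken as replicate 2. Of the other iron genes, those named are the called ones in a tissue, at most the 15 with the smallest p, or the 3 with the smallest p where fewer than 3 were called; a few others of the list, chosen after their values were seen, complete a role. 1 gene of the list is counted but not reported here by name. Likeness is given for the called members. Alternatives were DESeq2 1.42.0 and its size factors, no filter, the newer quasi-likelihood form, limma 3.58.1 (voom with quality weights), replicate blocks, both organs in one fit, subsets by depth and leaving out each library. Members and lists were chosen with earlier results of these data known.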

Additional observations from a re-analysis of the deposited data

Results flagged for a closer look

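Hmox1 in peritoneal cells had 1 β-NMN library far from the others: β-NMN replicate 5 held 1151 CPM, and its gap to the next mouse was 0.726 of the whole range of the 6 mice, above Dixon's critical value at 95%. Chance flags about 1 in 20 groups. In peritoneal cells Slc40a1 fell, with every β-NMN mouse below every vehicle mouse (log2 fold change -4.69). In lungs every β-NMN mouse was above every vehicle mouse, but the log2 fold change of 0.89 did not pass the test (edgeR adjusted p = 0.969). The difference between these changes was not tested, since the tissues come from separate experiments.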

How the results depend on the processing

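In peritoneal cells the direction of all 10 members held under every alternative run, and Slc40a1, Hmox1 and Steap3 passed in each. Without the low-count filter Slc11a1 missed the threshold (edgeR adjusted p 0.0575). Split by depth after the totals were seen, 5 members passed in the deep libraries (Fth1, Slc11a1 and Ncoa4 missed) and 6 in the shallower ones (Ftl1 and Hamp missed), with 25 and 23 other iron genes. With the replicate block 8 members and 31 other iron genes passed in peritoneal cells and 0 in either organ, and with the mouse as a replicate block 6 members differed between the organs, and the paired fit changed no call. Leaving out each library gave 7 to 8 members and 28 to 35 other genes in peritoneal cells, 0 in heart, lung and interaction, and 5 to 7 members between organs. DESeq2 called 1 member in heart and 1 in lung (Hamp in each) and 2 other iron genes in heart (Cd163 and Slc39a8), and limma-voom called 1 other gene in lung (Hpx). The remaining changes of direction were among differences that passed no test, on the log2 scale. In heart, Ncoa4 turned to 0.0043 with DESeq2, 0.0034 with its size factors, 0.0079 without the filter, 0.0197 with limma-voom and 0.0053 with both organs in one fit, and Slc40a1 to -0.0934 with limma-voom. In lung, Tfrc turned to -0.0175 with DESeq2 and -0.0164 with its size factors, and Ncoa4 to -0.0575 with limma-voom. Between organs, Slc11a1 turned to -0.1146 with the mouse as a replicate block, -0.0037 with the size factors and -0.006 with DESeq2. In the interaction, Slc11a1 turned to 0.0082 with that block and Fth1 to -0.0281 with DESeq2 and with its size factors. Leaving out 1 library gave in heart -0.123 to 0.5747 for Slc40a1, -0.0752 to 0.0629 for Ncoa4 and -0.0959 to 0.1003 for Steap3. In lung it gave -0.224 to 0.1911 for Fth1, -0.1865 to 0.5807 for Tfrc, -0.7224 to 0.1728 for Slc11a1 and -0.1423 to 0.6819 for Ncoa4. Between organs it gave -0.2407 to 0.1656 for Slc11a1 and -0.0449 to 0.1477 for Slc11a2. In the interaction it gave -0.2077 to 0.3166 for Fth1, -0.2299 to 0.1211 for Ftl1, -0.6766 to 0.3322 for Slc11a1, -0.2639 to 0.3131 for Slc11a2 and -0.1825 to 0.6552 for Ncoa4. The cause of these changes was not tested. Of the 6 lung libraries 5 were shallower than every heart library, and Hamp in lung rested on 12 to 120 reads.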
